A study of Arabidopsis thaliana with 14 samples.

Results

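Seed of the gibberellin-deficient Arabidopsis mutant ga1-3 was set against wild type seed while both lay on karrikin, a germination stimulant of smoke. The groups were taken from the sample labels, and they make up 7 of the 14 arrays of the study. The ga1-3 group has 3 arrays, from seed batches A to C, and the Landsberg erecta (Ler) wild type group has 4, from seed batches A to D. All 7 seed lots were primary dormant and were kept frozen until use. All were imbibed for 24 h at 20 C in white light of 100 uE on agar of 0.8% that held 1 uM KAR1, the karrikin used, so the wild type group was treated as well. The other 7 arrays hold the same harvests on agar without KAR1. Each batch is a separate harvest. The letters are shared by the genotypes but name different seed. Per the design text, wild type seed can germinate and KAR1 helps it to, while ga1-3 seed can do neither. The labels give the ecotype for the wild type samples and not for the mutant ones. Seed was taken whole, so embryo, endosperm and seed coat are pooled on each array.

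Gibberellin is the hormone that permits germination. It binds GID1 receptors, which then hold DELLA repressors, and the F-box protein SLY1 passes the DELLAs on for breakdown. Without DELLAs, genes for wall loosening and for use of the reserves come on, the embryo elongates and the endosperm gives way. GA1 encodes ent-copalyl diphosphate synthase, the enzyme of the first committed step to gibberellin, and ga1-3 is a loss-of-function allele of it. The array annotation used here names no probe set for GA1, so the genotype labels could not be checked on the mutated gene. It also names none of the genes of gibberellin synthesis and inactivation and none of the storage protein genes that were listed as seed markers. Other transcripts of mature seed were present in both genotypes. PAP85, a vicilin-like storage protein, had 24795, 22844 and 23569 in ga1-3 seed, against 23878, 25356, 23696 and 25606 in Ler seed. OLEO3, an oil-body oleosin, had 2305, 2619 and 2478 in ga1-3 seed, against 2933, 2486, 2314 and 2190.3 in Ler seed. The groups overlapped for both, and neither was called.

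Values are GCRMA intensities, 1 per probe set and array on a linear scale. Of 22746 probe sets without the hybridisation controls, 11189 had a group mean (mean of log2 values) of 16 or more in at least 1 genotype, and counts are given over these. The higher group mean was 15.99 in the first probe set left out. A probe set was called when limma's Benjamini-Hochberg adjusted p was under 0.05. Folds were taken after values under 16 had been raised to 16, and are written as at least N-fold where every array of the dimmer group lay under 16. A log2 difference followed by ± and its standard error is ga1-3 minus Ler from the fit on the unraised values. It is larger than the log2 of the fold where values under 16 were raised.

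The arrays of each genotype were not alike. On a principal component analysis of the 7 arrays, 73.0% of the variance lay along the first axis, which placed ga1-3 batches A, B and C at 26.0, 56.0 and 55.8, and Ler batches A to D at -61.2, -26.2, -28.8 and -21.6. Batch A of ga1-3 thus lay nearest to Ler, and batch A of Ler farthest from ga1-3. All 14 arrays of the study were clustered on the spike-in control probe sets, and the tree was cut into 3 clusters. The number 3 was chosen and not estimated, and the labels name no batch to which the clusters belong. Of the 7 arrays on KAR1, the first held Ler A and B, the second Ler C and D with ga1-3 A, and the third ga1-3 B and C. With the cluster as a block, the genotype difference rests on ga1-3 A against Ler C and D, the 3 arrays of the mixed cluster. The calls kept under that block are given by gene group, and the difference over those 3 arrays for the largest genes.

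A large share of the seed transcriptome differed between the genotypes, more of it higher than lower in ga1-3. Calls were made for 4200 of the 11189 probe sets (37.5%), with 2781 higher (24.9%) and 1419 lower (12.7%) in ga1-3. A fold of 2 or more was reached by 1143 of the calls (10.2%), 812 of them higher (7.26%) and 331 lower (2.96%), and a fold of 4 or more by 81 higher and 29 lower ones. In 1131 of the 1143, the 3 ga1-3 values did not overlap the 4 Ler values, against 47.6% of all 11189. The median log2 difference over all 11189 was 0.13, and quantile normalization of the 7 arrays shifted it by -0.12. It also evened the split to 1991 higher and 1894 lower calls (51.2% higher, against 66.2% on the deposited values). The excess of higher calls therefore depends on the scaling, as do small positive differences. Among the calls with a fold of 2 or more, 71 had all Ler arrays under 16 and 27 had all ga1-3 arrays under 16. In seed RNA from whole tissue, fewer cells of a type and less of a transcript per cell cannot be told apart.

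How far the calls rest on single arrays was measured by leaving each out. The 1143 calls with a fold of 2 or more numbered 750 without ga1-3 C, 752 without ga1-3 B and 1678 without ga1-3 A, and between 851 and 1245 without a Ler array. All calls numbered 2164 without ga1-3 C and 2212 without ga1-3 B. Of the 1143, 778 kept their call in each of the 7 fits. With the spike-in cluster as a block, 290 of them kept it. The mixed cluster was also used apart from the others. Calls of 2-fold or more between ga1-3 B and C and Ler A and B numbered 1489, and 90.9% had the same direction in ga1-3 A against Ler C and D. Of the higher ones 94.5% were higher there, against 59.6% of all probe sets, and of the lower ones 84.8% were lower, against 40.4%. For the 1489, the differences in that cluster had a median ratio of 0.44 to those in the calls, and 24.6% reached 2-fold there. The 1489 were chosen for their size on the other arrays, so smaller differences elsewhere are partly built in. The ratio is therefore no measure of the cluster.

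**Figure D1:**
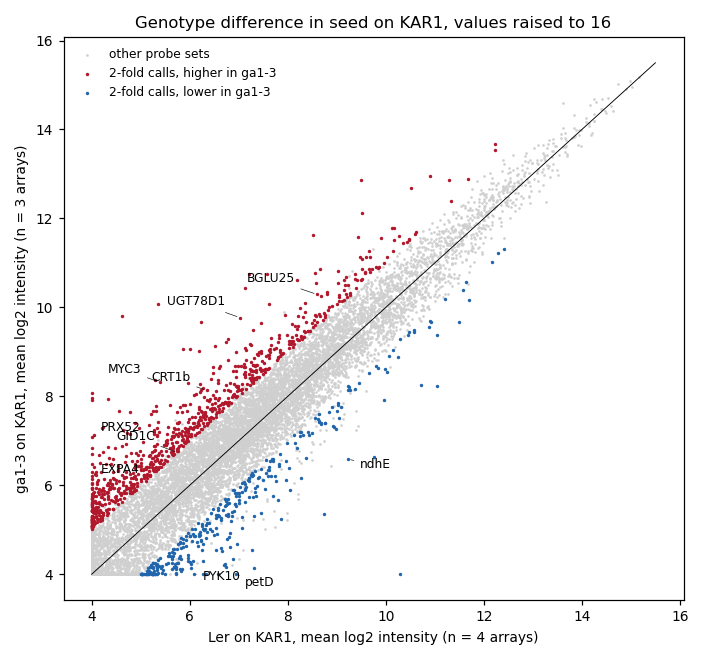
Mean log2 intensity on KAR1 of each probe set, ga1-3 (n = 3 arrays) on the vertical axis against Ler (n = 4 arrays) on the horizontal axis, with values under 16 raised to 16. Coloured points are the 812 higher and 331 lower calls with a fold of 2 or more, and the line marks equal levels.

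Among the genes of gibberellin signalling, 2 of the 3 receptor genes were higher in ga1-3. GID1C had an intensity of 103, 117 and 101 in ga1-3 seed, against 42.6, 59.4, 48.7 and 67.3 in Ler seed. The groups did not overlap, and the difference was 1.99-fold (0.99 ± 0.18, adjusted p = 0.00664). GID1A had 917, 1205 and 1253 in ga1-3 seed, against 617, 747, 759 and 824 in Ler seed. Each ga1-3 value lay above each Ler value, the lowest being batch A, and the difference was 1.52-fold (0.61 ± 0.15, adjusted p = 0.0207). GID1B lay under 16 on all 7 arrays. SPY, an enzyme that modifies DELLA proteins, had 724, 643 and 669 in ga1-3 seed, against 288, 570.3, 595 and 528 in Ler seed, and it was not called (0.51 ± 0.26, adjusted p = 0.167). The low Ler A value stood apart, and without that array SPY passed the test. SEC, a related enzyme, and SLY1 were not called either (log2 differences of 0.36 and -0.28). Over the 5 genes measured, 2 were called higher (40%, against 24.9% of all probe sets) and 0 lower (against 12.7%). The median was 0.51 beside 0.13 over all probe sets. With the spike-in cluster as block, none of the 5 was called. GID1A lost its call when ga1-3 B or C was left out.

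Abscisic acid is the hormone that opposes gibberellin in seed. Of 23 genes listed for its signalling and for dormancy, XERICO alone was measured, a RING protein gene that raises the abscisic acid level. Seed maturation genes, EEL among them, are described with their own group. XERICO had 952, 718 and 709 in ga1-3 seed, against 540.0, 635, 535 and 591 in Ler seed. It was called higher by 1.37-fold (0.45 ± 0.13, adjusted p = 0.0381); after quantile normalization it was not called. HYH, a bZIP factor of light signalling, had overlapping values of 162, 129.7 and 125 in ga1-3 seed, against 189.9, 167, 121 and 129.5 in Ler seed. XERICO lost its call when ga1-3 A, B or C or Ler A, C or D was left out. XERICO was not called with values raised to 16 before the fit (adjusted p = 0.0581).

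By size, the 12 largest higher genes with separate groups held 3 with a symbol and 9 loci that the annotation gives without one. The 3 encode a peroxidase, a transcription factor and a flavonol glycosyltransferase. The 9 were not assigned to families, so further members of these families may be among them. PRX52, a class III peroxidase, had 133, 104 and 178 in ga1-3 seed, against 4.6, 12.9, 4.7 and 4.7 in Ler seed. It was under 16 on every Ler array and at least 8.44-fold higher in ga1-3 (4.49 ± 0.42, adjusted p = 0.000404). MYC3, a bHLH factor of the jasmonate response, had 242, 357 and 377 in ga1-3 seed, against 31, 61.5, 33.2 and 48.4 in Ler seed, a gap of 7.62-fold (2.93 ± 0.29, adjusted p = 0.000554). UGT78D1, which puts rhamnose on flavonols, had 489.6, 1280.0 and 1059.8 in ga1-3 seed, against 77.4, 145, 188 and 136 in Ler seed. Its groups lay far apart although ga1-3 A was under the other ga1-3 batches, and the difference was 6.7-fold (2.74 ± 0.42, adjusted p = 0.00338). All 3 kept their call without each array in turn. In ga1-3 A against Ler C and D alone, PRX52 differed by 3.06, MYC3 by 2.59 and UGT78D1 by 1.61 on the log2 scale with values raised to 16.

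Among the 9 loci without a symbol, AT2G22590 had the largest fold. AT2G22590 stood at 75.2, 589 and 449.5 in ga1-3 seed, against 6.1, 8.2, 15.4 and 6.1 in Ler seed, at least 16.9-fold higher (5.03 ± 0.77, adjusted p = 0.00397). The level in ga1-3 A was far under that in B and C, and still above all Ler arrays. AT2G43580 was more even, at 249, 386 and 367 in ga1-3 seed, against 29.4, 38.5, 42.8 and 49.4 in Ler seed, with a difference of 8.34-fold (3.06 ± 0.23, adjusted p = 0.000168). AT1G06000 was 9.0-fold higher and AT1G64500 7.38-fold higher, and AT1G06550 6.14-fold higher, with adjusted p of 0.00127, 0.0013 and 0.00803. AT2G42560 had 5609, 7957 and 9185 in ga1-3 seed, against 127, 929, 1224 and 1893 in Ler seed. Ler A was far under the other Ler batches, and the difference was 10.3-fold (3.36 ± 0.92, adjusted p = 0.0317). AT2G05580 and AT5G35660 were 11.7-fold and 9.98-fold higher, and AT5G62210 was 6.12-fold higher, with adjusted p of 0.0131, 0.0142 and 0.0178. In ga1-3 A against Ler C and D alone, the log2 difference with values raised to 16 was 2.23 for AT2G22590, where all 7 arrays gave 4.08. It was 1.93 for AT2G05580 (all arrays 3.54) and 1.88 for AT2G42560 (all arrays 3.36). AT2G42560 was not called with the cluster as block (adjusted p = 0.429). AT2G42560 lost its call when ga1-3 A, B or C or Ler B was left out. AT2G05580 and AT5G35660 lost their calls when ga1-3 B or C was left out. AT5G62210 lost its call when ga1-3 B or C or Ler A was left out. AT2G42560, AT5G35660 and AT5G62210 were not called with values raised to 16 before the fit (adjusted p of 0.106, 0.0506 and 0.0622). AT2G22590 differed by 5.01 without ga1-3 A, against 4.08 with all arrays (log2, values raised to 16). AT2G42560 differed by 2.52 without Ler A, against 3.36 with all arrays (log2, values raised to 16).

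The largest difference among these named genes ran the other way. AT3G47320, which the annotation lists as a pseudogene, had 7.3, 7.6 and 7.3 in ga1-3 seed, against 1234, 1296, 1073 and 1404 in Ler seed. It was at least 77.9-fold lower in ga1-3 (-7.40 ± 0.12, adjusted p = 1.56e-06), at the same level on all 3 ga1-3 arrays. Its call held with the spike-in cluster as block (adjusted p = 0.00298). AT3G16120, at 261, 348 and 301 in ga1-3 seed, against 2906, 1928, 1829.6 and 1916 in Ler seed, was 6.99-fold lower (-2.81 ± 0.19, adjusted p = 0.000112). AT1G17410, at 16.4, 8.8 and 8.9 in ga1-3 seed, against 123, 92.8, 91.3 and 81.5 in Ler seed, was 5.95-fold lower (-3.14 ± 0.27, adjusted p = 0.000262). Both kept their calls without each array and with the cluster as block. AT5G18540 split the ga1-3 batches, with 168, 20.1 and 20.7 in ga1-3 seed, against 459.8, 481, 421 and 366 in Ler seed. It was 10.4-fold lower (-3.38 ± 0.76, adjusted p = 0.0161). In ga1-3 A against Ler C and D alone, the log2 difference of AT5G18540 with values raised to 16 was -1.22, where all 7 arrays gave -3.38, and that of AT3G47320 was -6.26, where they gave -6.28. AT5G23380 was 4.9-fold lower and AT2G07751 6.19-fold lower (adjusted p of 0.02 and 0.02). AT3G09380 was 5.99-fold lower (-2.81 ± 0.44, adjusted p = 0.00384). The other 5 of the 12 largest lower genes were plastid-encoded (petD, ndhH, ndhE, atpI and ndhK) and are described with their group. AT5G18540 and AT2G07751 lost their calls when ga1-3 B or C was left out. AT5G23380 lost its call when ga1-3 B or C or Ler A was left out. AT5G18540, AT5G23380 and AT2G07751 were not called with values raised to 16 before the fit (adjusted p of 0.0572, 0.057 and 0.074). AT5G18540 differed by -4.40 without ga1-3 A, against -3.38 with all arrays (log2, values raised to 16). AT5G23380 differed by -2.97 without ga1-3 A, against -2.29 with all arrays (log2, values raised to 16).

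**Figure D2:**
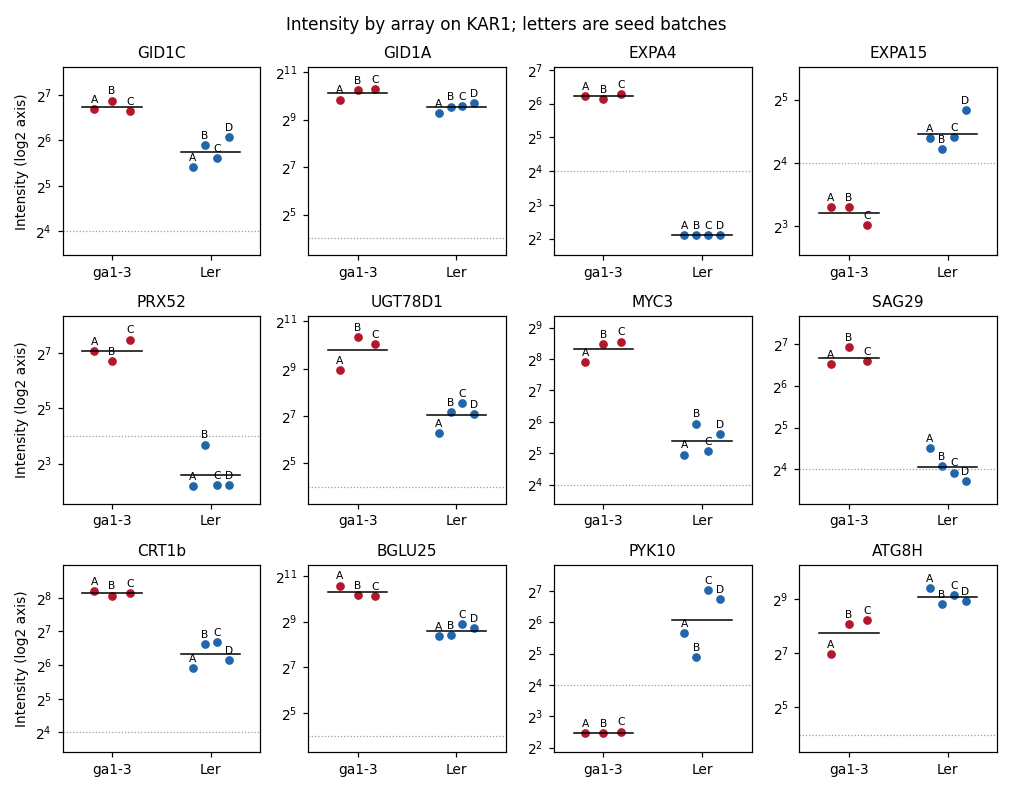
Intensity on a log2 axis for 12 genes on KAR1, ga1-3 (red, left) and Ler (blue, right), with 1 point per array lettered by seed batch, bars at the mean of log2 values and a dotted line at 16. Vertical scales differ between panels, EXPA4 and PYK10 show levels under 16 on all arrays of a genotype, and UGT78D1 shows ga1-3 A under ga1-3 B and C.

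Genes of the cell wall went both ways. Among 20 wall genes at 16 or more, 4 were called higher (20%, against 24.9% of all probe sets), 3 lower (15%, against 12.7%) and 13 not at all, and the median log2 difference of -0.02 lay beside 0.13 over all probe sets. Expansins, the proteins that loosen walls for growth, went in opposite directions. EXPA4 had 74.9, 70.7 and 77.5 in ga1-3 seed, against 4.3, 4.3, 4.3 and 4.3 in Ler seed. It was present on the ga1-3 arrays alone, at least 4.64-fold higher (4.11 ± 0.08, adjusted p = 1.8e-06), with each group tight. EXPA20 had 64.3, 123 and 138 in ga1-3 seed, against 24.8, 42.2, 34 and 49 in Ler seed, 2.83-fold higher (1.5 ± 0.34, adjusted p = 0.015). EXPA15 was the reverse, with 9.9, 9.9 and 8.1 in ga1-3 seed, against 21.1, 18.6, 21.2 and 28.5 in Ler seed, all ga1-3 values being under 16. It was at least 1.38-fold lower (-1.25 ± 0.17, adjusted p = 0.00196), and both EXPA4 and EXPA15 kept their calls without each array and with the cluster as block. EXPA8 overlapped and was not called, with 47, 18.3 and 22.3 in ga1-3 seed, against 6.1, 6.2, 30.6 and 43.7 in Ler seed. EXPA20 lost its call when ga1-3 B or C was left out.

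Other wall genes differed too. TBL26, of a family that acetylates wall polysaccharides, was 3.51-fold higher (2.19 ± 0.40, adjusted p = 0.00687), with 33.3, 80.1 and 71.6 in ga1-3 seed, against 7.5, 13.9, 13.8 and 17.7 in Ler seed. CSLD2, a cellulose synthase-like protein, was 1.78-fold higher (0.83 ± 0.21, adjusted p = 0.0214). XTH19, a xyloglucan endotransglucosylase, had 12.8, 14.6 and 11.3 in ga1-3 seed, against 21.9, 20.1, 34.2 and 85.6 in Ler seed. All its ga1-3 values were under 16 and Ler D stood above the other Ler batches, and it was not called (-1.39 ± 0.50, adjusted p = 0.0709). TBL23 and SKU5 were called lower by small amounts (-0.43 and -0.31). Without ga1-3 A, 5 wall genes were called higher and 6 lower. Without ga1-3 B or without ga1-3 C, 2 were called higher and 3 lower, and with the cluster as block 1 call was kept in each direction. CSLD2 lost its call when ga1-3 B or C was left out.

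Tubulins, the subunits of microtubules, were higher where called. All 5 measured had positive differences, as did 58.5% of all probe sets, and the median was 0.63. Of the 5, 3 were called higher (60%, against 24.9% of all probe sets) and 0 lower. In ga1-3 A against Ler C and D alone, the median was 0.19. TUB7 had 59.3, 69.6 and 63 in ga1-3 seed, against 32.8, 12, 18.6 and 21.1 in Ler seed, 3.0-fold higher (1.69 ± 0.32, adjusted p = 0.00785), with Ler A the brightest of Ler. TUB9 and TUA1 were 1.55-fold and 1.53-fold higher (adjusted p of 0.0401 and 0.0281). TUA6 was not called, with 120.0, 89.5 and 109 in ga1-3 seed, against 26, 25.8, 105 and 121 in Ler seed. Its Ler C and D values lay with ga1-3, and Ler A and B far below. After quantile normalization, and without ga1-3 B, ga1-3 C or Ler D, 1 tubulin was called, 2 without Ler A, B or C, and 0 with the cluster as block. TUB9 lost its call when ga1-3 B or C or Ler B, C or D was left out. TUA1 lost its call when ga1-3 B or C or Ler A or D was left out.

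UDP-glycosyltransferases, enzymes that glycosylate hormones and secondary metabolites, were mostly higher. Of 20 found by symbol at 16 or more, 12 were higher (60%, against 24.9% of all probe sets), 1 lower and 7 not called, with a median of 0.58. Loci without a symbol, AT2G22590 and AT1G06000 among them, are not in this count. Beside UGT78D1, the flavonoid glucosyltransferase UGT78D2 had 994, 2211 and 1976 in ga1-3 seed, against 356, 791, 737 and 569.6 in Ler seed, 2.78-fold higher (1.48 ± 0.38, adjusted p = 0.0231). UGT71B1 had 37.9, 54.1 and 50 in ga1-3 seed, against 5.9, 6.4, 6.9 and 6.4 in Ler seed. It was under 16 on all Ler arrays and at least 2.93-fold higher (2.87 ± 0.14, adjusted p = 3.12e-05). UGT73B4 also had its Ler arrays under 16, with a difference of at least 2.46-fold (2.1 ± 0.37, adjusted p = 0.00545). UGT74B1, of glucosinolate synthesis, was 1.99-fold higher (1.00 ± 0.24, adjusted p = 0.019). The exception was UGT85A5, with 174, 178 and 169.5 in ga1-3 seed, against 434, 462, 343 and 374 in Ler seed, 2.31-fold lower (-1.21 ± 0.13, adjusted p = 0.000699). Without ga1-3 B there were 8 calls higher, and with the cluster as block 3 of the 12 higher calls and the lower one were kept. UGT78D2 lost its call when ga1-3 B or C or Ler D was left out. UGT74B1 lost its call when ga1-3 B or C was left out. UGT78D2 was not called with values raised to 16 before the fit (adjusted p = 0.0866).

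Cytochromes P450, the oxygenases of the same metabolism, had 4 of 7 called higher (57.1%, against 24.9% of all probe sets) and 1 lower, with a median of 0.84. CYP71B6 had 239, 395 and 373 in ga1-3 seed, against 62.7, 124, 123 and 86 in Ler seed, 3.44-fold higher (1.78 ± 0.30, adjusted p = 0.00502). CYP71B26 and CYP71B34 were 2.81-fold and 2.11-fold higher (adjusted p of 0.000403 and 0.00218). CYP84A4, a relative of ferulate 5-hydroxylase, was the lower one, with 14.5, 14 and 13.9 in ga1-3 seed, against 36.1, 33.1, 36.7 and 33.8 in Ler seed, at least 2.18-fold lower (-1.30 ± 0.09, adjusted p = 0.000128). The cluster as block kept 1 call in each direction.

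Sugar transporters had 3 of 5 called higher (60%, against 24.9% of all probe sets) and 1 lower (20%, against 12.7%). SAG29, a sucrose exporter of the SWEET family, had 91.4, 121 and 96.4 in ga1-3 seed, against 22.7, 16.8, 15.2 and 13.2 in Ler seed. The ga1-3 values lay far above those of Ler, among which batch A was the highest, and the difference was 5.78-fold (2.62 ± 0.21, adjusted p = 0.000215). The vacuolar sugar carriers TMT1 and TMT2 were 4.54-fold (2.31 ± 0.36, adjusted p = 0.00368) and 2.09-fold (1.06 ± 0.14, adjusted p = 0.00161) higher. All 3 kept their calls without each array. SWEET6 was 2.3-fold lower (-1.20 ± 0.35, adjusted p = 0.0356). With the cluster as block, 1 of the 3 higher calls was kept and the lower one was not. SWEET6 lost its call when ga1-3 A or C or Ler A, B or C was left out.

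Genes of protein folding in the endoplasmic reticulum were higher where they changed. Of 13, 5 were called higher (38.5%, against 24.9% of all probe sets) and 0 lower, with a median of 0.28. CRT1b, a calreticulin and so a calcium-binding chaperone there, had 292, 269 and 281 in ga1-3 seed, against 60.3, 99.3, 103 and 70.6 in Ler seed, 3.46-fold higher (1.79 ± 0.21, adjusted p = 0.00114). The stress factors BZIP17 and BZIP28 were 1.85-fold and 1.64-fold higher (adjusted p of 0.00558 and 0.0201), the co-chaperone ATERDJ2A 1.84-fold higher (adjusted p = 0.00834) and the export channel protein DER2.1 1.68-fold higher (adjusted p = 0.00929). BZIP60, a further stress factor, was not called (0.28 ± 0.15, adjusted p = 0.186). None of the 13 was called once the spike-in cluster was a block. BZIP28 lost its call when ga1-3 B or C or Ler C was left out.

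Chaperones outside that compartment were mixed, with 2 of 12 higher and 2 lower (16.7% each, against 24.9% and 12.7% of all probe sets). Cpn60beta3, a plastid chaperonin, was 2.07-fold higher (1.05 ± 0.19, adjusted p = 0.00686) and Hsp70-2 at least 1.55-fold higher (1.14 ± 0.16, adjusted p = 0.00213). HSA32, a heat-stress protein, was 1.49-fold lower (-0.58 ± 0.09, adjusted p = 0.00413) and the mitochondrial co-chaperone ATJ1 1.85-fold lower (-0.88 ± 0.21, adjusted p = 0.0183). Without ga1-3 A, 4 were called in each direction, and with the cluster as block 1 of the 4 calls was kept. ATJ1 lost its call when ga1-3 B or C was left out.

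Proteases of the vacuole and the wall had 4 of 12 called higher (33.3%, against 24.9% of all probe sets) and 1 lower (8.3%, against 12.7%). ARA12, a subtilisin that acts on seed coat mucilage, had 2568, 3948 and 4329 in ga1-3 seed, against 684, 1139, 1473 and 1535 in Ler seed, 3.06-fold higher (1.61 ± 0.33, adjusted p = 0.00985). The carboxypeptidase-like SCPL49 had 1163, 1227 and 1086 in ga1-3 seed, against 492, 588, 606 and 583 in Ler seed, 2.05-fold higher (1.03 ± 0.10, adjusted p = 0.00054). GAMMA-VPE, a vacuolar processing enzyme, was 1.78-fold higher (0.83 ± 0.14, adjusted p = 0.00536) and the aspartic protease APA1 1.3-fold higher (0.38 ± 0.10, adjusted p = 0.0245). scpl25 was lower, with all ga1-3 values under 16 (at least 1.67-fold, -1.99 ± 0.21, adjusted p = 0.000755). The related scpl20 was not called, with 8.1, 5.6 and 5.6 in ga1-3 seed, against 6.3, 5.7, 48.6 and 48.2 in Ler seed. With the cluster as block, 1 of the 4 higher calls and the lower one were kept, and ARA12, GAMMA-VPE and APA1 were not called (adjusted p of 0.215, 0.181 and 0.343). APA1 lost its call when ga1-3 B or C or Ler C or D was left out.

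Of 5 beta-glucosidases, 1 was called higher (20%, against 24.9% of all probe sets) and 1 lower (20%, against 12.7%). BGLU25 had 1522, 1157 and 1118 in ga1-3 seed, against 332, 337, 479 and 419 in Ler seed, 3.24-fold higher (1.70 ± 0.18, adjusted p = 0.000718). PYK10, which resides in endoplasmic reticulum bodies, had 5.5, 5.5 and 5.7 in ga1-3 seed, against 50.2, 29.8, 131 and 108 in Ler seed. Every ga1-3 value was under 16, while Ler varied widely, B being the lowest and C the highest, and the difference was at least 4.23-fold (-3.61 ± 0.51, adjusted p = 0.00265). Both calls held without each array and with the cluster as block. BGLU19, BGLU28 and BGLU44 were not called. PYK10 was not called with values raised to 16 before the fit (adjusted p = 0.0796).

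Redox enzymes were mostly higher. Of 17, 9 were called higher (52.9%, against 24.9% of all probe sets) and 2 lower (11.8%, against 12.7%), with a median of 0.48. ATMDAR2, which regenerates ascorbate, had 34.5, 43.7 and 48.9 in ga1-3 seed, against 15.1, 12.7, 23.2 and 15.7 in Ler seed, 2.39-fold higher (1.37 ± 0.23, adjusted p = 0.00498). GLDH, of the last step of ascorbate synthesis, was 1.84-fold higher (0.88 ± 0.18, adjusted p = 0.0112), and the glutathione reductases GR and GR1 1.58-fold and 1.61-fold higher (adjusted p of 0.011 and 0.024). The lower ones were both repair enzymes of oxidised protein. SRX, a sulfiredoxin, had 771, 638 and 604 in ga1-3 seed, against 1907, 1505, 1238 and 1085 in Ler seed, 2.1-fold lower (-1.07 ± 0.21, adjusted p = 0.00822). MSRB5, a methionine sulfoxide reductase, was 1.98-fold lower (-0.99 ± 0.10, adjusted p = 0.000577). Quantile normalization left 5 higher and 4 lower. Leaving out ga1-3 B left 4 higher, ga1-3 C or Ler D 6 higher, and the cluster as block kept 0 higher calls and 1 lower one. GR1 lost its call when ga1-3 B or C or Ler A or D was left out.

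Regulators of the jasmonate and defence responses had 5 of 9 called higher (55.6%, against 24.9% of all probe sets) and 0 lower, with a median of 0.66. Beside MYC3, the zinc finger factor STZ had 517, 817 and 790.2 in ga1-3 seed, against 282, 359, 358 and 319 in Ler seed, 2.12-fold higher (1.08 ± 0.19, adjusted p = 0.0056). WRKY6 and WRKY22 were at least 1.8-fold (1.15 ± 0.18, adjusted p = 0.00408) and 1.58-fold (0.66 ± 0.11, adjusted p = 0.00417) higher. MYC4, a close relative of MYC3, was called at levels near 16 in ga1-3, where a fold cannot be read (14.7, 18 and 17.9 in ga1-3 seed, against 7.3, 7.6, 7.9 and 7.6 in Ler seed). The kinase gene BIK1 was not called (1.33 ± 0.45, adjusted p = 0.056), although each ga1-3 value of BIK1 lay above each Ler value. With the cluster as block, 2 of the 5 calls were kept. Defensin-like and RALF signal peptides had 4 of 11 higher (36.4%) and 1 lower (9.09%), and 3 of the 4 higher calls were kept with the block. LCR69, a defensin-like peptide, had 805, 981 and 892 in ga1-3 seed, against 305, 307, 352 and 238 in Ler seed, 2.99-fold higher (1.58 ± 0.15, adjusted p = 0.000456), and the defensin PDF1.2b was 1.55-fold lower (-0.64 ± 0.11, adjusted p = 0.00535).

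Light and clock regulators had 3 of 7 called higher (42.9%, against 24.9% of all probe sets) and 1 lower (14.3%, against 12.7%). HAT2, a homeodomain factor of shade and auxin responses, had 44.7, 30 and 39.7 in ga1-3 seed, against 7.9, 7.8, 8.1 and 8.4 in Ler seed, at least 2.35-fold higher (2.22 ± 0.15, adjusted p = 8.76e-05). XCT, a clock regulator, had 48.8, 22.5 and 23.8 in ga1-3 seed, against 91.3, 90.3, 90.5 and 90.2 in Ler seed. Its Ler values were nearly equal, with ga1-3 A between them and ga1-3 B and C, and it was 3.05-fold lower (-1.61 ± 0.27, adjusted p = 0.00505). GI, a clock protein that also acts in flowering, was 2.1-fold higher (1.07 ± 0.29, adjusted p = 0.0278). The cluster as block kept 1 of the 3 higher calls and the lower one. GI lost its call when ga1-3 B or C or Ler B was left out.

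Few of the seed maturation genes listed, which mark the dry and dormant state, passed the test. The list does not hold AT2G42560, a locus without a symbol that is described above. Of 15, 1 was called higher (6.67%, against 24.9% of all probe sets), 2 lower (13.3%, against 12.7%) and 12 not at all, and 11 were below 0, with a median of -0.19. The higher one was XERICO, described above. The 2 lower ones were the linker histone HIS1-3 and the late embryogenesis abundant protein LEA4-5. HIS1-3 had 946, 1003 and 1067 in ga1-3 seed, against 2327, 1953, 1647 and 1714 in Ler seed, 1.89-fold lower (-0.91 ± 0.13, adjusted p = 0.00293). LEA4-5 had 6020.2, 6012 and 5489.6 in ga1-3 seed, against 8666, 8225, 7421 and 6857 in Ler seed, 1.33-fold lower (-0.41 ± 0.10, adjusted p = 0.0163). The factors AGL67 and EEL and the drought-induced DI21 shared a pattern in which ga1-3 A lay inside the Ler range and ga1-3 B and C lay below. AGL67 had 893, 387 and 397 in ga1-3 seed, against 1133, 1002, 863 and 919 in Ler seed, and was not called (-0.92 ± 0.31, adjusted p = 0.0557). Without ga1-3 A, 0 genes of the list were called higher and 6 lower. After quantile normalization 0 were higher and 5 lower, and without ga1-3 C 0 higher and 1 lower. Under the cluster block, the higher call and 1 of the 2 lower ones were kept. LEA4-5 lost its call when ga1-3 C was left out.

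Genes for using up reserves were mixed. Of 13 genes of lipid and branched-chain amino acid breakdown, 3 were higher (23.1%, against 24.9% of all probe sets) and 2 lower (15.4%, against 12.7%), with a median of 0.14. SDP1-LIKE, a relative of the main seed oil lipase, had 213, 227 and 239.5 in ga1-3 seed, against 70.9, 110.4, 151 and 95.4 in Ler seed, 2.2-fold higher (1.14 ± 0.25, adjusted p = 0.0129). The lipase SDP1 itself was not called (0.43 ± 0.18, adjusted p = 0.106). ICL, isocitrate lyase of the glyoxylate cycle, had 16274, 14744 and 14383 in ga1-3 seed, against 13865, 16296, 16409 and 16385 in Ler seed, and was not called. IVD, of leucine breakdown, was 1.58-fold lower (-0.66 ± 0.19, adjusted p = 0.0342), and ETFALPHA, which takes its electrons, 1.3-fold lower (-0.37 ± 0.11, adjusted p = 0.0373). PPDK, an enzyme of pyruvate metabolism, was 1.54-fold higher (0.62 ± 0.15, adjusted p = 0.0177), and D2HGDH, of lysine breakdown, 1.81-fold higher (0.85 ± 0.19, adjusted p = 0.0149). Without ga1-3 C, 0 of the 13 were called, and with the cluster as block none of the 5 calls was kept. SDP1-LIKE, PPDK and D2HGDH lost their calls when ga1-3 C was left out. IVD lost its call when ga1-3 B or C or Ler B was left out. ETFALPHA lost its call when ga1-3 A, B or C or Ler C or D was left out. ETFALPHA was not called with values raised to 16 before the fit (adjusted p = 0.279).

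Nuclear genes of photosynthesis and chlorophyll had 7 of 26 called higher and 2 lower, shares of 26.9% and 7.69% beside 24.9% and 12.7% of all probe sets, with a median of 0.06 that turned to -0.08 after quantile normalization. LHCB4.3, a light-harvesting protein, had 69, 97.2 and 110.2 in ga1-3 seed, against 48, 36.7, 49.9 and 34.8 in Ler seed, 2.16-fold higher (1.11 ± 0.22, adjusted p = 0.00867). RCA, Rubisco activase, had 26.7, 31.3 and 30.7 in ga1-3 seed, against 10.2, 12.5, 12 and 11.9 in Ler seed, at least 1.84-fold higher (1.34 ± 0.11, adjusted p = 0.000265). The photosystem II assembly genes LPA1 and LPA19 were 1.85-fold (-0.89 ± 0.21, adjusted p = 0.0175) and 1.93-fold (-0.95 ± 0.15, adjusted p = 0.00344) lower. Without ga1-3 A, 8 were higher and 5 lower, and with the cluster as block 1 call was kept in each direction. LPA1 lost its call when ga1-3 B or C was left out.

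Genes of autophagy, RNA polymerases and LSM complexes were lower where called. Autophagy genes had 0 of 10 called higher and 4 lower (40%, against 12.7% of all probe sets), with a median of -0.42. The 4 encode ATG8 proteins, which coat the autophagosome. ATG8H had 126, 270.3 and 301 in ga1-3 seed, against 682, 454, 572 and 483 in Ler seed, 2.49-fold lower (-1.32 ± 0.32, adjusted p = 0.0199), with ga1-3 A the lowest. ATG8E had 95.7, 84.8 and 80.6 in ga1-3 seed, against 159, 176, 168 and 151 in Ler seed, 1.88-fold lower (-0.91 ± 0.11, adjusted p = 0.00125). ATG8C and ATG8F were 1.72-fold and 1.47-fold lower (adjusted p of 0.0122 and 0.0134). Without ga1-3 B, 2 of the 4 were called, and with the cluster as block 1 of them, ATG8H (adjusted p = 0.0241). RNA polymerase subunits had 0 of 12 higher and 4 lower (33.3%), with a median of -0.41. NRPD7 was 1.7-fold lower (-0.76 ± 0.16, adjusted p = 0.0123), NRPB7 1.59-fold lower (-0.67 ± 0.19, adjusted p = 0.0323), and NRPE7 and NRPB6A 1.56-fold and 1.44-fold lower (adjusted p of 0.0256 and 0.0329). None of the 12 was called without ga1-3 B, without ga1-3 C or with the cluster as block, and 1 was without Ler A or without Ler C. All 6 LSM genes of RNA decay and splicing had negative differences, and LSM3B was the 1 called (1.73-fold lower, -0.79 ± 0.23, adjusted p = 0.0349). ATG8H lost its call when Ler A or C was left out. ATG8C and ATG8F lost their calls when ga1-3 B was left out. NRPD7 lost its call when ga1-3 B or C was left out. NRPB7 lost its call when ga1-3 A, B or C or Ler A or C was left out. NRPE7 and NRPB6A lost their calls when ga1-3 B or C or Ler A or C was left out. LSM3B lost its call when ga1-3 B or C or Ler A, B or C was left out.

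Smaller groups are given by their counts. Ubiquitin proteases and conjugating enzymes had 4 of 21 higher and 3 lower, 19.0% and 14.3% beside 24.9% and 12.7% of all probe sets, and 1 call in each direction was kept with the cluster as block. UBP20 was 2.13-fold higher (1.09 ± 0.17, adjusted p = 0.00383) and UBC28 2.07-fold lower (-1.05 ± 0.19, adjusted p = 0.00573). Histone genes listed by symbol had 2 of 5 higher (40%) and 0 lower, but that list does not hold HIS1-3, which was called lower. The higher ones were HON4, at 1195, 1638 and 1724 in ga1-3 seed, against 426, 585, 562 and 533 in Ler seed (2.87-fold, 1.52 ± 0.17, adjusted p = 0.000957) and HTB2 (1.82-fold, 0.86 ± 0.20, adjusted p = 0.0168). Glutathione S-transferases had 1 of 3 higher, GSTU26 (2.41-fold), and 1 lower, GSTU27, whose raised values overlapped (33.3% each). Of 4 WRKY factors 2 were higher (50%), the pair above. Of 5 bHLH factors 1 was higher (20%), ILR3, an iron response regulator (1.43-fold, 0.52 ± 0.07, adjusted p = 0.00201). The list of late embryogenesis abundant proteins, which does not hold AT2G42560, had 1 of 7 higher and 1 lower (14.3% each). The higher one was AT2G44060 (0.64 ± 0.10, adjusted p = 0.00436) and the lower one LEA4-5. The 1 MYB factor measured, AT5G47390, was not called. Lists by locus that overlap those above had 1 of 2 light-harvesting genes (50%), 1 of 4 glycosyl hydrolases (25%) and 2 of 3 tubulins and actins (66.7%) higher. Of 3 histones there, 2 were higher (66.7%) and 1 lower (33.3%). None of 2 xyloglucan endotransglucosylases and 3 genes of lipid mobilisation was called. HTB2 lost its call when ga1-3 B or C was left out. GSTU26 lost its call when ga1-3 B or C or Ler A, B, C or D was left out.

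**Figure D3:**
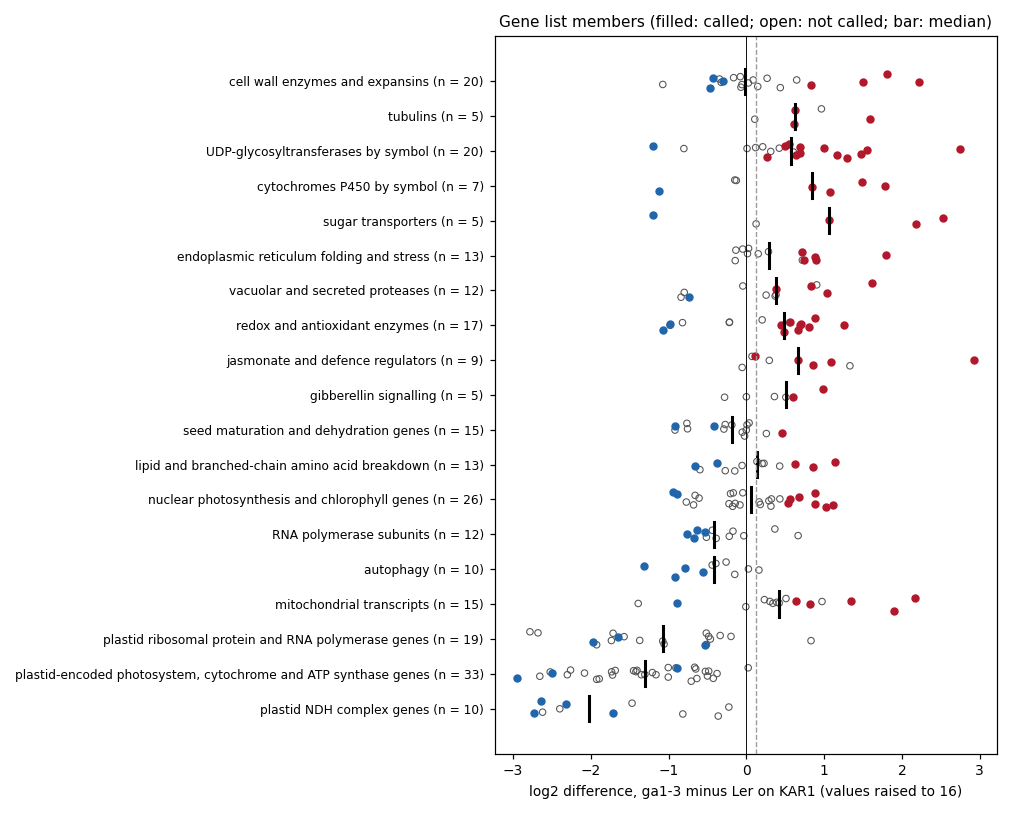
Log2 difference (ga1-3 minus Ler on KAR1, values raised to 16) of each member of 19 gene lists, filled where called and open where not, with a black bar at the list median and a dashed line at 0.13, the median of all 11189 probe sets. Among the lists mostly right of 0 are tubulins (5 of 5), jasmonate and defence regulators (8 of 9), UDP-glycosyltransferases (18 of 20) and sugar transporters (4 of 5). Cytochromes P450 have 4 of 7 there, and the 3 plastid-encoded lists lie to the left.

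Transcripts of the mitochondrial genome were mostly higher where they were called. Of 15 probe sets, 5 were higher (33.3%, against 24.9% of all probe sets) and 1 lower (6.67%, against 12.7%), with a median of 0.42. With the cluster as block, 1 of the higher calls was kept and the lower one was not. The lowest difference of the 15 was that of nad6, at -1.39 with values raised to 16. It was not called (adjusted p = 0.23). The cytochrome c maturation gene ccb452 had 239, 467 and 586 in ga1-3 seed, against 111, 110.3, 67.9 and 76.5 in Ler seed, 4.51-fold higher (2.17 ± 0.35, adjusted p = 0.00407). The nad5 probe set with the larger difference of 2, for a subunit of complex I, had 50.6, 76.1 and 93.1 in ga1-3 seed, against 31.7, 16.2, 15.8 and 16.1 in Ler seed, 3.72-fold higher (1.90 ± 0.33, adjusted p = 0.00513), and the other was called higher too. cox1, for a subunit of cytochrome c oxidase, had 278, 547 and 722 in ga1-3 seed, against 275, 189.9, 154 and 159 in Ler seed. Its Ler A value nearly equalled ga1-3 A, and the 2.53-fold difference was called (1.34 ± 0.36, adjusted p = 0.0277). The lower one was ccb206, with 5.2, 4.4 and 5.2 in ga1-3 seed, against 115, 16.3, 26.2 and 14.2 in Ler seed (-2.55 ± 0.73, adjusted p = 0.0363). Ler A stood apart, and Ler D was under 16 like all of ga1-3. The difference of ccb206 after values were raised to 16 was -0.90, and with values raised before the fit no mitochondrial probe set was called lower. cox1 lost its call when ga1-3 B or C or Ler B, C or D was left out. ccb206 lost its call when ga1-3 A, B or C or Ler C was left out. cox1 and ccb206 were not called with values raised to 16 before the fit (adjusted p of 0.0555 and 0.825). ccb206 differed by -0.25 without Ler A, against -0.90 with all arrays (log2, values raised to 16).

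Nearly all transcripts of the plastid genome had negative differences, but few passed the test and 1 wild type harvest stood out. Of 69 plastid-encoded genes at 16 or more, 66 had a negative difference, 10 were called lower and 0 higher, and the median log2 difference was -1.40. Lower calls made up 12.7% of all probe sets, and 10 of 69 (14.5%) is near that share. Relative to the mean of the 7 arrays, the median plastid gene stood at -0.52, -1.03 and -0.97 in ga1-3 batches A to C, and at 2.08, 0.52, 0.19 and -0.33 in Ler batches A to D. Ler A was thus far above the other arrays, and Ler D lay close to ga1-3 A. The 5S ribosomal RNA control was also lower in ga1-3, at log2 intensities of 6.59 to 8.27 in ga1-3 and 8.72 to 10.6 in Ler, highest in Ler A. Its part in the plastid difference was not tested.

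The plastid groups had different medians over all 7 arrays, and a difference between groups was not tested. Without Ler A, the median was -1.46 for NDH genes and -0.81 for photosystem, cytochrome and ATP synthase genes. For ribosomal protein and RNA polymerase genes it was then -0.80. Genes of the NDH complex, which passes electrons around photosystem I, had 4 of 10 called lower (40%, against 12.7% of all probe sets). Their median was -2.02, and 0 were called when values were raised to 16 before the fit. ndhH had 22.7, 22.8 and 24.4 in ga1-3 seed, against 501, 251, 80.4 and 56.7 in Ler seed, 6.64-fold lower (-2.73 ± 0.77, adjusted p = 0.0336). The ga1-3 arrays were nearly equal, while the Ler batches differed widely, A being the highest and D the lowest, and all lay above ga1-3. ndhE had 133, 97.1 and 68.6 in ga1-3 seed, against 1904, 1051, 334 and 191 in Ler seed, 6.22-fold lower (-2.64 ± 0.83, adjusted p = 0.0484), ndhK was at least 5.01-fold lower (-3.60 ± 0.95, adjusted p = 0.0275) and ndhF at least 3.27-fold lower (-1.93 ± 0.55, adjusted p = 0.0334). The 33 genes of the photosystems, the cytochrome complex and ATP synthase had 3 called lower (9.09%, under the 12.7% of all probe sets). With values raised before the fit 1 was called, and the median was -1.31. petD, of the cytochrome b6f complex, had 15.8, 7.9 and 6.9 in ga1-3 seed, against 669, 89.6, 109.9 and 34.8 in Ler seed, at least 7.69-fold lower (-3.69 ± 0.98, adjusted p = 0.0284), and atpI, of ATP synthase, had 24, 17 and 15.1 in ga1-3 seed, against 398, 72.6, 78.9 and 55 in Ler seed, 5.66-fold lower (-2.53 ± 0.70, adjusted p = 0.031). rbcL, the large subunit of Rubisco, and psbA, of photosystem II, overlapped and were not called (log2 differences of -0.64 and -0.43). Ribosomal protein and RNA polymerase genes of the plastid had 3 of 19 lower (15.8%, near the 12.7% of all probe sets). With values raised before the fit 1 was called, and the median was -1.08. rps16 had 29.9, 31 and 24.6 in ga1-3 seed, against 276, 130.2, 90.8 and 46.7 in Ler seed, 3.92-fold lower (-1.97 ± 0.56, adjusted p = 0.0338). rps18 was the plastid gene furthest above 0, at 0.83, and was not called. ndhH lost its call when ga1-3 A, B or C or Ler B was left out. ndhE lost its call when ga1-3 A, B or C or Ler A, B or C was left out. ndhK and rps16 lost their calls when ga1-3 A, B or C or Ler B or C was left out. ndhF lost its call when ga1-3 A, B or C or Ler A or B was left out. petD lost its call when ga1-3 B or C or Ler B or C was left out. atpI lost its call when ga1-3 A, B or C or Ler C was left out. ndhH, ndhE, ndhK, ndhF, petD, atpI and rps16 were not called with values raised to 16 before the fit (adjusted p of 0.113, 0.152, 0.286, 0.167, 0.16, 0.11 and 0.122). ndhK differed by -1.59 without Ler A and -3.03 without Ler D, against -2.32 with all arrays (log2, values raised to 16). petD differed by -2.13 without Ler A and -3.55 without Ler D, against -2.94 with all arrays (log2, values raised to 16). atpI differed by -1.86 without Ler A, against -2.50 with all arrays (log2, values raised to 16).

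Without Ler A, 62 of the 69 plastid genes were still below 0, with a median of -0.87, and 12 were called lower (of all probe sets, 12.3%) and 1 higher, matK. The number called lower was 24 without Ler D, 9 without ga1-3 A, 4 without Ler C and 2 without Ler B, and 0 without ga1-3 B or without ga1-3 C. In ga1-3 A against Ler C and D, 53 were below 0, with a median of -0.37, and with the cluster as block none was called. On water, 66 were below 0 and 6 called lower, with a median of -1.17.

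**Figure D4:**
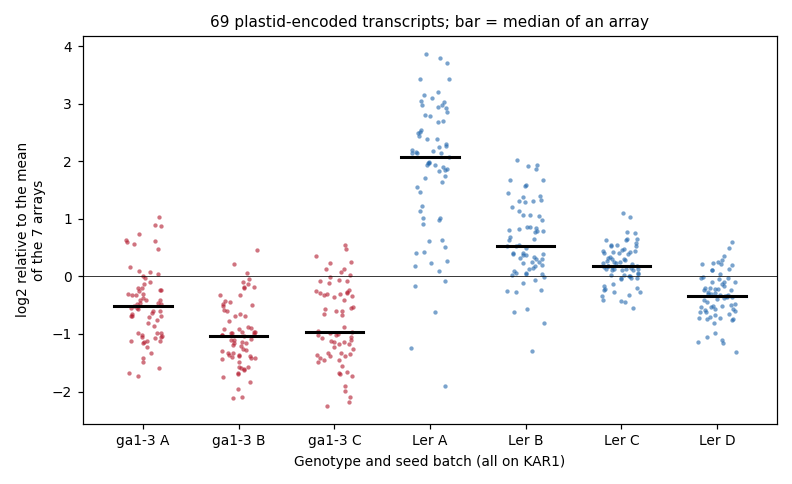
Log2 intensity of 69 plastid-encoded transcripts (1 point each, values raised to 16) relative to the mean of the 7 arrays on KAR1, by genotype and seed batch, with a bar at the median of each array. Ler A stands at 2.08, the ga1-3 batches at -0.52 to -1.03, and Ler D at -0.33 between them and the other Ler batches.

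The same genotype contrast on plain agar was set beside that on KAR1, since both treatments were given to seed of the same harvests. The pair of contrasts has no array in common but shares each harvest, so one does not repeat the other independently. The water contrast made 3338 calls (29.8%), with 2236 higher and 1102 lower, and 926 with a fold of 2 or more (8.28%). Of the 1143 on KAR1, 758 were also called with a fold of 2 or more in the same direction on water, which is 66.3% of the KAR1 list and 81.9% of the water list. None was called in the opposite direction. PRX52 had log2 differences of 3.08 on KAR1 and 3.14 on water, MYC3 2.93 and 2.69, GID1C 0.99 and 0.91, EXPA4 2.22 and 2.48, AT3G47320 -6.28 and -6.45 and PYK10 -2.08 and -1.21, all after values under 16 were raised to 16.

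Whether KAR1 altered the genotype difference was tested as an interaction with seed batch as a block. No probe set of 11281 was called by limma (0%), and 488 had an unadjusted p under 0.05 where chance would give 564. Without the block, 0 were called as well and 67 had such a p. The lowest adjusted p was 0.333, and the median standard error of 0.15 on the log2 scale is the precision reached. The 4 genes with the smallest p and a positive estimate were AT1G08230, AT2G42300, AT4G08790 and AT1G79540, and the 4 with a negative one LHCB4.1, AT1G52560, GSTU27 and AT2G20920. LHCB4.1, a light-harvesting protein, had an estimate of -0.50 on the log2 scale (adjusted p = 0.876). AT1G52560 was lower in ga1-3 by a log2 difference of -0.77 on KAR1 and -0.46 on water. AT2G42300, at 0.55 on KAR1 and -0.02 on water, was called on KAR1 and not on water, and that contrast of calls is not a difference shown by the test. With values raised to 16 before the fit, 50 probe sets were called, 20 of which had at least 7 of their 14 values at the floor.

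**Figure D5:**
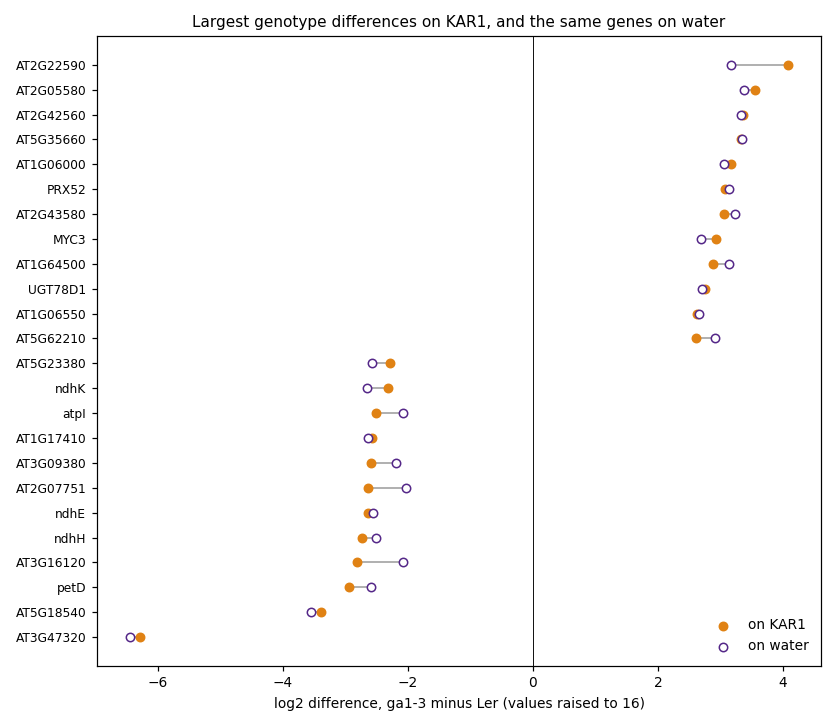
Log2 difference (ga1-3 minus Ler, values raised to 16) of the 12 largest higher and 12 largest lower genes on KAR1 (filled) and of the same genes on water (open). The open points lie on the same side of 0 as the filled ones for all 24 genes.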

How the data were processed

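Expression in whole seed was measured on 14 Affymetrix arrays, each hybridised with biotin-labelled cRNA made from 7 ug of total RNA, and the 7 arrays on KAR1 were compared here. Per the submitters' processing notes, the deposited intensity values were made with GCRMA, which corrects background, normalizes and summarizes probes into 1 value per probe set. Its version and whether all arrays were run together are not given in the sources used here. The values lie on a linear scale from 3.5 to 39328.1 and no column was left out. Arrays give no read depth, and their number limits the precision.

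The log2 intensities of 22746 probe sets (22810 less 64 controls) were fitted with limma 3.58.1 in R 4.3.3 (lmFit, and eBayes with trend and robust, statmod 1.5.0), ga1-3 against Ler, without a block. P-values were two-sided and adjusted over all 22746. The 7 water arrays stayed out because they share seed with the KAR1 arrays, and the interaction took all 14 with the seed batch as a block. The labels call the batches distinct harvests. Tables were made with Python 3.11.15, pandas 2.3.3 and numpy 2.4.6. The annotation pairs 13513 probe sets with 1 gene, 503 with several and 8730 with none, and 13436 were matched to the TAIR10.1 gene table of RefSeq. Only probe sets with 1 gene were named.

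Named genes were the 12 with the largest fold in each direction among 2-fold calls with separate groups, up to 4 members of each list by size of difference, and the 4 with the smallest interaction p in each direction, 155 in all. A few others were named after their values were seen, to complete a count or show arrays that split. The comparison, the 34 lists by locus and the 25 lists by symbol were chosen with earlier results of these data known, and the 25 after the files were read. ATCRT1, LCR, AQI and HDA15 were removed from lists that their names alone had put them in, since the gene table does not give their loci as members. Of the 34, 18 had a member at 16 or more. The annotation named no measured member for the rest, among them the lists of gibberellin synthesis, GASA peptides, abscisic acid metabolism, karrikin signalling, storage proteins, endosperm and leaf markers, ribosomal proteins, cyclins and heat shock proteins. These are gaps of the lists, since genes outside them such as PAP85, HSA32 and Hsp70-2 were measured. Alternatives covered the floor, filter, moderation, array weights, normalization, blocks and each array left out. Data were simulated from the means and spreads of these arrays, with 100 genes changed at each size. The test recovered 38% at a log2 change of 1 and 85% at 2, with 4 false calls among 22746. The simulated noise was independent between genes and arrays, and far fewer genes were changed than were called here. The figures therefore give neither the power nor the false calls of the real comparison, whose arrays differ in shared ways. A planned count of promoter motifs was not run, since no promoter sequences were at hand.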

Additional observations from a re-analysis of the deposited data

Results flagged for a closer look

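Of 154 named probe sets looked at among the 4 Ler arrays on KAR1, 21 had an array farther from the rest than Dixon's 95% critical value for 4 samples allows, and chance gives about 1 in 20. The array was Ler A in 17 of the 21. The ratio in brackets is the gap to the nearest other array over the whole range of the group, on the deposited linear intensities.

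Among the flagged probe sets, Ler A was high for plastid-encoded transcripts, for a mitochondrial probe set of nad5 and for some nuclear genes. It stood at 1563.5 for ndhJ against 92.6 to 304.5 on the other Ler arrays (0.856), at 1551 for rpoB against 104.2 to 227 (0.915) and at 1399.7 for rps14 against 79.9 to 163 (0.937). It stood at 819 for rpoC2 against 82.4 to 148 (0.911), at 669 for petD against 34.8 to 109.9 (0.882) and at 398 for atpI against 55.0 to 78.9 (0.930). The nad5 probe set named above stood at 31.7 against 15.8 to 16.2 (0.975). AT3G09380 stood at 232 against 77.4 to 87.2 (0.936), AT3G16120 at 2906 against 1829.6 to 1928 (0.909), DI21 at 1618 against 1116 to 1159.8 (0.913) and RALFL24 at 65.7 against 17.3 to 22.1 (0.901).

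Ler A was low for others. SEC stood at 189.7 against 337 to 364 (0.846), ICL at 13865 against 16296 to 16409 (0.956), PPDK at 1334 against 1843 to 1847 (0.993) and ZAP1 at 189.7 against 291 to 306 (0.870). On other arrays, bHLH104 stood at 248 in Ler D against 301 to 309.6 (0.864), and TMT2 at 321 in Ler B against 239.7 to 252 (0.850). Under 16 on all Ler arrays were PRX52, at 12.9 in Ler B against 4.6 to 4.7 (0.988), RALFL33, highest at 11.6 in Ler A (0.833), UBP21, highest at 13.3 in Ler D (0.920), and GID1B, at 4.8 in Ler A against 4.9 on each other array (1.000).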

How the results depend on the processing

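The 4200 calls and 1143 calls of 2-fold or more kept within 1.5 times their number under most alternatives. All calls numbered 8366 with no filter on low values and 6724 with array weights, which gave Ler A a weight of 0.113. With the spike-in cluster as block they numbered 704, of which 331 reached 2-fold, and in the mixed cluster alone 211 and 107. Leaving out each array in turn gave 2164 to 5013 calls and 750 to 1678 of 2-fold or more, lowest without ga1-3 C. With values raised to 16 before the fit, the interaction made 50 calls in place of 0. The clusters that hold 1 genotype each, an alternative chosen after seeing the data, gave 2992 and 1489. Taking the batch letter as a replicate block gave 2887 and 1177. The letters name different seed in each genotype, the deviations of same-lettered arrays correlated at 0.15, 0.12 and 0.037, and 2 of 3 ga1-3 arrays correlated best with the Ler array of their letter. The interaction without its replicate block made 0 calls, with 67 probe sets at an unadjusted p under 0.05. Of the 155 named genes, none changed direction while called. Calls were lost for 73 with the cluster as block, 92 in the mixed cluster alone, 37 without ga1-3 C, 34 without ga1-3 B, 24 with the letter as block, 18 with values raised to 16 before the fit and 5 after quantile normalization. With 3 arrays against 4, small differences are not resolved.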
